A study of Mus musculus with 6 samples.

Results

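Expression of Ifnb1, of 7 genes through which LPS induces it and of the 2 genes of its receptor was examined in primary mouse bone-marrow-derived macrophages (BMDMs). The members are the rows of the deposited table that carry the gene symbols Ticam1, Ticam2, Traf3, Tbk1, Ikbke, Irf3, Irf7, Ifnb1, Ifnar1 and Ifnar2, which are 10 of 54532 genes, and 10 of 10 passed the filter on low values, Ifnb1 only through the 4 LPS-stimulated libraries. The cells were grown from the bone marrow of wild-type C57BL/6 mice in medium conditioned by L929 cells. Each of 3 groups has 2 poly-A RNA-seq libraries. BMDMs were left untreated (Untr), were stimulated for 2 h with lipopolysaccharide (LPS) at 100 ng/ml, or received metformin at 5 mM over 6 h before the same stimulation (Met + LPS). LPS makes up the outer surface of Gram-negative bacteria, and metformin is a widely used drug against diabetes. Cells treated with metformin alone were not analysed here, so values given as with metformin compare Met + LPS cells with LPS cells. Values of Met + LPS against untreated cells combine both treatments. The study's methods have the cells plated in duplicate, and neither they nor the labels say whether replicates 1 and 2 came from separate mice, so that p-values measure only the spread between these libraries, which may be technical.

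LPS binds the receptor TLR4, which signals from the cell surface through MyD88 and, once internalised, through the adaptors TRAM (Ticam2) and TRIF (Ticam1). TRIF recruits the ubiquitin ligase TRAF3, which brings in the kinases TBK1 and IKKε (Ikbke), and these phosphorylate the transcription factors IRF3 and IRF7, so that they enter the nucleus and bind the Ifnb1 enhancer together with NF-κB and ATF2/c-Jun. Secreted interferon-β binds the receptor chains IFNAR1 and IFNAR2 on the same and neighbouring macrophages, which turns on interferon-stimulated genes, among them Irf7 itself.

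Levels are given in TPM, a unit that corrects the read count of a gene for its length and for the size of the library, so that levels can be compared between genes. Differences are log2 fold changes of TPM + 1 from limma, fitted to all 12755 genes that reached 1 TPM in 2 or more of the 6 libraries, with Benjamini-Hochberg adjustment of the p-values over these genes. A gene was called changed at an adjusted p-value under 0.01, and past the cut-offs where its absolute log2 fold change was also at least 2 (against untreated cells) or at least 0.7 (Met + LPS vs. LPS). The libraries held between 25457016 and 30762755 reads on genes. All macrophage markers were present in every library, from Mertk (12.9 to 54.1 TPM) to Lyz2 (21203 to 35844 TPM). The summed level of the 6 macrophage markers lay between 43548 and 45432 TPM in untreated libraries, between 34348 and 35111 TPM after LPS and between 28688 and 28811 TPM after metformin and LPS. These sums came mostly from Lyz2, and single markers differed from them. In TPM as deposited, Adgre1 was higher in LPS (1750 and 1684 TPM) than in untreated libraries (1510 and 1575 TPM), while the other markers were lower. Cd68 overlapped between LPS (4971 and 4583 TPM) and Met + LPS libraries (4767 and 4800 TPM), while the other markers were lower in the latter. The 5 neutrophil markers summed to 18.3 to 19.8 TPM in untreated, 7.83 to 13.4 TPM in LPS and 18.4 to 19.7 TPM in Met + LPS libraries, mostly from Elane (6.27 to 17.4 TPM), with Ly6g at most at 0.140 TPM. The 4 T cell markers summed to 6.23 to 6.85, 3.81 to 4.30 and 2.72 to 3.58 TPM in the same order, mostly from Cd4 (2.66 to 6.78 TPM), with Cd3g at 0 and Cd3e at most at 0.0645 TPM. Their part in the results below was not tested. In bulk RNA, fewer cells of a type and less RNA per cell cannot be told apart.

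The scaling of the libraries bears on every comparison with untreated cells. The median log2 fold change of all tested genes was -0.48 for LPS vs. untreated in TPM as deposited and -0.01 once the libraries were rescaled by their median ratios, as size factors are computed. For Met + LPS vs. LPS the 2 medians were -0.03 and -0.02. Both values are therefore given for the 10 members, and for the medians of the pathway lists, wherever LPS-stimulated cells are set against untreated cells. The size factors were 1.29 and 1.30 for the untreated and 0.898 and 0.895 for the LPS libraries. The cell type markers above are in TPM as deposited only, so their falls against untreated cells can depend on the scaling. Shares of all tested genes called are likewise for TPM as deposited.

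Ifnb1 (ENSMUSG00000048806) lies on the minus strand of chromosome 4, 88522025 to 88522774 in GRCm38, and is a single exon of 750 bases with no intron. The DNA just before its start is shown because it holds the sites at which several of the genes described here meet. The stretch is at chr4:88522865-88522956 on the minus strand and covers bases -162 to -71 before the RefSeq start (RefSeq, GRCm38.p6). Capitals mark 3 matches to the interferon regulatory factor core AANNGAAA, then a match to the κB consensus, then the motif TATAAA.

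Ifnb1 promoter: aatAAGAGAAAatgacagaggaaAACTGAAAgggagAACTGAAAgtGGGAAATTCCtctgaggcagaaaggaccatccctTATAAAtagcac

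Promoters of 9 of the 10 members were found in RefSeq, and the 3 motifs were searched on both strands of the 250 bases upstream of each start. AANNGAAA was found 3 times in the Ifnb1 promoter, once in that of Ikbke and in none of the other 7, and 21.3% of all 32851 promoters held it. The κB consensus was found once in Ifnb1 and once in Traf3, against 3.90% of all promoters. TATAAA was found 2 times in Ifnb1 and once in Irf7, against 12.4% of all promoters. A match describes these letters only and is not a measure of binding. The matching stretches of Ikbke (chr1:131279674-131279703, minus strand, bases -140 to -111, with the core on the opposite strand) and of Traf3 (chr12:111166340-111166369, plus strand, bases -30 to -1) are shown for comparison, with the matches in capitals.

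Ikbke promoter: gaatcctcTTTCCCTTtactgaagggggag

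Traf3 promoter: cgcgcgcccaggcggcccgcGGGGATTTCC

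The study's RT-qPCR primers for Ifnb1 match the exon exactly and enclose 82 bases, from base 83 to base 164 of the transcript, at 88522611 to 88522692 on chromosome 4. They are shown because they mark the part of the transcript that the study measured by a second method. The RNA-seq reads were counted over the whole exon.

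Ifnb1 forward primer: agctccaagaaaggacgaacat

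Ifnb1 reverse primer: gccctgtaggtgaggttgatct

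After 2 h of LPS, 7 members rose (Ifnb1, Irf7, Ikbke, Ifnar1, Tbk1, Traf3 and Ifnar2) at an adjusted p-value under 0.01 in limma, against 16.2% of all tested genes. Ifnb1 and Irf7 were past the cut-offs as well, which 3.72% of tested genes were, and after rescaling Ikbke made them 3. Ifnb1 passed the filter only through the stimulated libraries, so its place in these counts adds no support for its rise. Irf3 and Ticam1 were called lower, against 60.1% of all tested genes, and both were no longer called and had values above 0 (0.18 and 0.13) after rescaling. Ticam2 did not pass. The median log2 fold change of the 10 members was 0.42, beside -0.48 for all tested genes, and after rescaling 0.94 beside -0.01.

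With metformin before LPS, Ifnb1 and the adaptor gene Ticam1 rose past the cut-offs relative to LPS alone, which 4.19% of tested genes did. Traf3 also rose, which makes 3 members higher at an adjusted p-value under 0.01 against 14.5% of all tested genes. Irf7, Ifnar1, Ifnar2, Ikbke and Tbk1 fell, 5 members against 18.0% of tested genes, and none of these 5 was past the fold-change cut-off. Irf3 and Ticam2 did not pass. The median log2 fold change of the members was -0.31, beside -0.03 for all tested genes. These directions were the same after rescaling. The comparison shares its LPS libraries with LPS vs. untreated, so that the values of the 2 comparisons are not independent of each other.

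**Figure D1:**
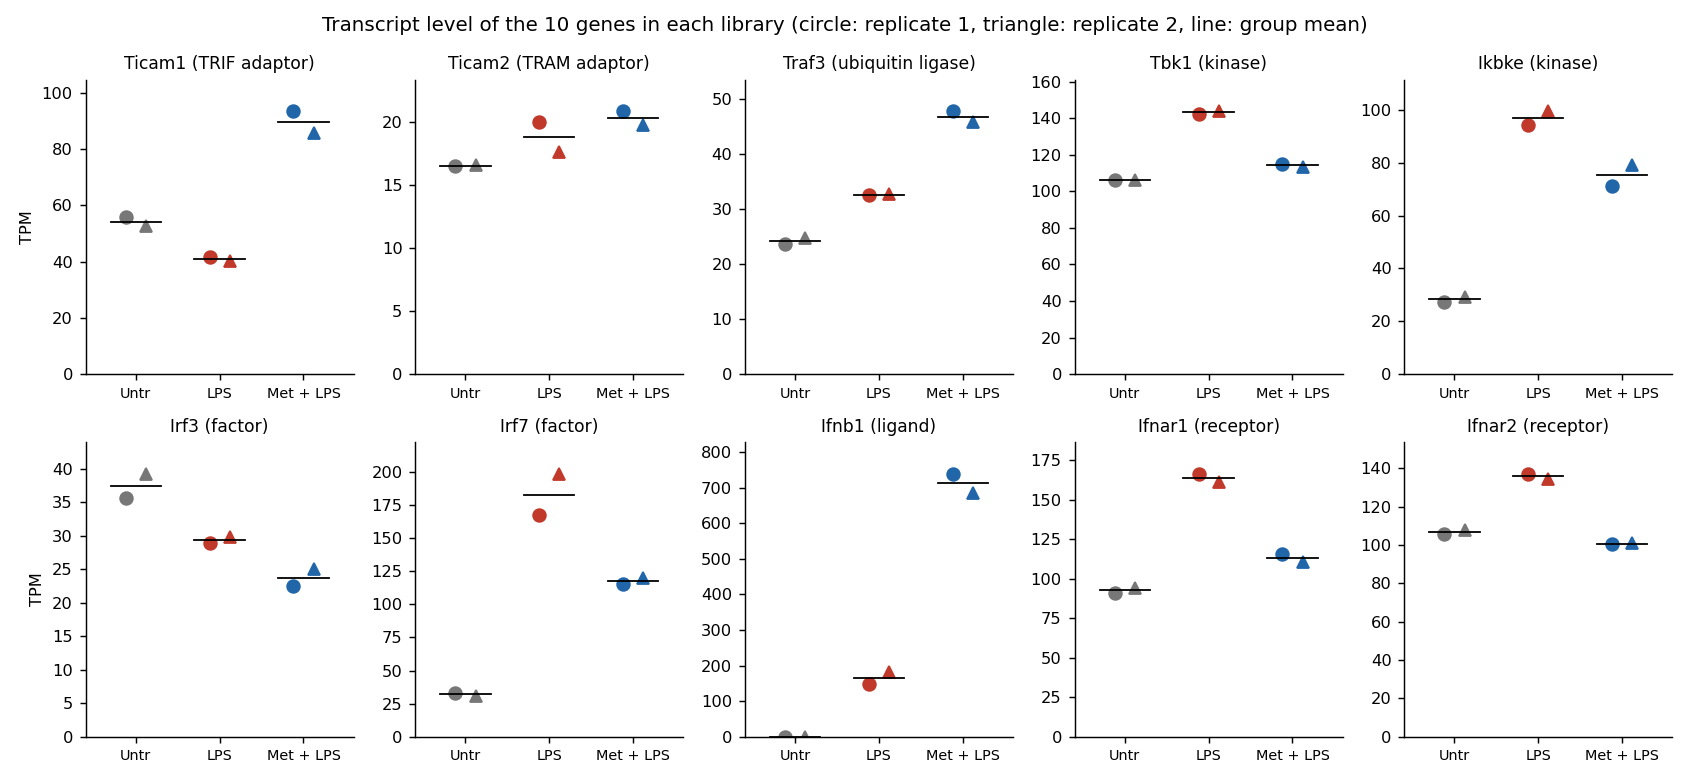
TPM of the 10 genes (vertical axes, each from 0) in the untreated, LPS and Met + LPS libraries, with a symbol for each of the 2 replicates and a line at the group mean. Ifnb1 reached 738 and 686 TPM in the Met + LPS libraries, above 148 and 182 TPM in the LPS libraries and 0.351 and 0 TPM in the untreated libraries, whereas Irf7, Tbk1, Ikbke, Ifnar1 and Ifnar2 were highest in the LPS libraries.

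Ticam1 (ENSMUSG00000047123, chromosome 17, 56269319 to 56276786) encodes TRIF, the adaptor that couples TLR4 and TLR3 to Ifnb1 induction. It was at 55.9 and 52.5 TPM in untreated, 41.5 and 40.3 TPM in LPS, and 93.4 and 85.7 TPM in Met + LPS libraries. Both Met + LPS libraries lay above all others and both LPS libraries below all others, so that the groups did not overlap. The group means were 54.2 ± 2.42, 40.9 ± 0.905 and 89.5 ± 5.44 TPM (SD, n = 2 each). Ticam1 was 119% higher in Met + LPS than in LPS libraries, a log2 fold change of 1.11 (SE 0.06, adjusted p = 2.8e-05 in limma), and it ranked 225 of the 12755 tested genes by increase. For LPS vs. untreated its log2 fold change was -0.40 (SE 0.06, adjusted p = 5e-04 in limma) as deposited and 0.13 (adjusted p = 0.0831) after rescaling, so its direction under LPS depended on the scaling.

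Ticam2 encodes TRAM, the adaptor that bridges TLR4 to TRIF. It was at 16.5 and 16.6 TPM in untreated, 20.0 and 17.6 TPM in LPS, and 20.8 and 19.7 TPM in Met + LPS libraries. The LPS and Met + LPS libraries overlapped. Its log2 fold change with metformin was 0.11 (95% interval -0.06 to 0.27, adjusted p = 0.247 in limma), and that for LPS vs. untreated was 0.17 (95% interval 0.01 to 0.34, adjusted p = 0.0531 in limma). After rescaling the latter was 0.67 and passed (adjusted p = 1.5e-04). The annotation has 838 exon bases of Ticam2 shared with Tmed7 on the same strand, so that its level is uncertain.

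Traf3 (ENSMUSG00000021277, chromosome 12, 111166370 to 111267153) encodes the ubiquitin ligase that links TRIF to the kinases. It was at 23.7 and 24.8 TPM in untreated, 32.5 and 32.8 TPM in LPS, and 47.8 and 45.8 TPM in Met + LPS libraries. Its 3 groups did not overlap and rose in that order. The log2 fold change was 0.41 (SE 0.05, adjusted p = 1.6e-04 in limma) for LPS vs. untreated, or 0.93 after rescaling, and a further 0.51 (SE 0.05, adjusted p = 2.5e-04 in limma) for Met + LPS vs. LPS. Traf3 and Ifnb1 were the members that rose in both comparisons under both scalings.

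Tbk1 (ENSMUSG00000020115, chromosome 10, 121546455 to 121586787), the kinase present in most cells, was at 106 TPM in both untreated libraries, 143 and 144 TPM in LPS, and 115 and 113 TPM in Met + LPS libraries. Its groups did not overlap. Ikbke (ENSMUSG00000042349, chromosome 1, 131254343 to 131279606), its inducible relative, was at 27.3 and 29.3 TPM in untreated, 94.3 and 99.5 TPM in LPS, and 71.2 and 79.2 TPM in Met + LPS libraries, again without overlap. Ikbke stayed below Tbk1 in every library, and 224 of its exon bases overlap the genes Gm28914 and Gm28913 on the other strand. LPS raised Tbk1 by 34.9% (log2 fold change 0.43, or 0.96 rescaled) and Ikbke 3.42-fold (1.74, or 2.26 rescaled). With metformin the kinases were 20.3% and 22.4% lower than after LPS alone, log2 fold changes of -0.32 (adjusted p = 3.2e-04) and -0.36 (adjusted p = 0.00403) in limma. The call on Ikbke was lost in several alternatives, among them leaving out LPS replicate 1 (-0.40, adjusted p = 0.0121), LPS replicate 2 (-0.32, adjusted p = 0.0251) or Met + LPS replicate 1 (-0.29, adjusted p = 0.0180) in limma.

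Irf3 (ENSMUSG00000003184, chromosome 7, 44997648 to 45002848), the factor that is already present in resting cells, was at 35.6 and 39.3 TPM in untreated, 28.9 and 29.9 TPM in LPS, and 22.5 and 25.1 TPM in Met + LPS libraries. In TPM as deposited, each group lay below the previous without overlap. Its log2 fold change for LPS vs. untreated was -0.34 (SE 0.07, adjusted p = 0.00343 in limma) as deposited and 0.18 (adjusted p = 0.0568) after rescaling, so that this direction depended on the scaling. As deposited, it also no longer passed without untreated replicate 2 (-0.27), LPS replicate 1 (-0.32) or LPS replicate 2 (-0.36), with adjusted p-values of 0.0205, 0.0201 and 0.0121 in limma. For Met + LPS vs. LPS it was -0.30 (SE 0.07, adjusted p = 0.0136 in limma), which missed the threshold.

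Irf7 (ENSMUSG00000025498, chromosome 7, 141262706 to 141266481) encodes the factor that amplifies type I interferon production and is itself induced by interferon. It was at 33.0 and 31.1 TPM in untreated, 167 and 198 TPM in LPS, and 116 and 120 TPM in Met + LPS libraries. The Met + LPS libraries lay between the other groups without overlap. LPS raised it 5.70-fold, a log2 fold change of 2.47 (SE 0.08, adjusted p = 5.7e-07 in limma), or 2.99 after rescaling. With metformin it was 35.5% lower than after LPS alone, a log2 fold change of -0.62 (SE 0.08, adjusted p = 0.00109 in limma). Without LPS replicate 1 this value was -0.75, past the fold-change cut-off, so that 3 members were past the cut-offs.

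Ifnb1 was near the limit of detection in untreated cells, at 0.351 TPM (2 reads) and 0 TPM (0 reads), where 3 reads correspond to 0.526 and 0.558 TPM. It was at 148 and 182 TPM (844 and 997 reads) after LPS, and at 738 and 686 TPM (4186 and 4552 reads) after metformin and LPS. The 3 groups were far apart, and Ifnb1 moved from the lowest level of the 10 members in untreated cells to the highest in Met + LPS cells. Per read sequenced, the ratio of LPS to untreated libraries was 924 (95% exact interval 255 to 7635) and that of Met + LPS to untreated libraries 3981 (1102 to 32878), where the intervals cover counting error only and the reads carry no molecular identifiers. On the log2(TPM + 1) scale, which understates the change of a gene so low in untreated cells, LPS raised it by 7.15 (SE 0.15, adjusted p = 9.5e-08 in limma), or 7.35 after rescaling. With voom, a fit to read counts, the value was 9.67 and its SE 0.85, so the SE of 0.15 holds for the TPM + 1 scale only. Ifnb1 passed the filter only through the stimulated libraries, so the p-value adds no support for its rise after LPS.

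Between LPS and Met + LPS, Ifnb1 went from 165 ± 24.3 to 712 ± 37.2 TPM (SD, n = 2 each). This is 4.32-fold, a log2 fold change of 2.11 (SE 0.15, adjusted p = 1.1e-04 in limma, 2.13 after rescaling), and it ranked 25 of the tested genes by increase. Of the 474 genes that LPS raised past the cut-offs, 18 rose again past the cut-offs with metformin, which 4.19% of all tested genes did. At least 126 of the 474 were called lower with metformin, against 18.0% of all tested genes. Among all 474 the change of Ifnb1 with metformin was the second largest increase. These genes were chosen for high values in the LPS libraries, which are also the baseline of the metformin comparison. That choice favours falls, so the counts and the rank are descriptions only. Leaving out each library in turn gave log2 fold changes between 1.96 and 2.26. With a pseudocount of 0.1 in place of 1, which spreads the untreated values of 0.351 and 0 TPM far apart, the value was 2.12 and the adjusted p-value 0.0335 in limma, above the threshold.

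Ifnar1 (ENSMUSG00000022967, chromosome 16, 91485238 to 91507441) and Ifnar2 (ENSMUSG00000022971, chromosome 16, 91372783 to 91405589) encode the 2 chains of the receptor for interferon-β and lie close together on that chromosome. Ifnar1 was at 91.3 and 94.2 TPM in untreated, 166 and 161 TPM in LPS, and 116 and 111 TPM in Met + LPS libraries, so that the Met + LPS libraries lay between the other groups. Ifnar2 was at 106 and 108 TPM in untreated, 137 and 135 TPM in LPS, and 100.5 and 100.8 TPM in Met + LPS libraries, without overlap. After LPS, Ifnar1 rose by 76.8% and Ifnar2 by 27.1%, log2 fold changes of 0.82 (adjusted p = 3.1e-06) and 0.34 (adjusted p = 6.8e-05) in limma, or 1.34 and 0.87 after rescaling. With metformin they were 30.9% and 25.9% lower than after LPS alone, log2 fold changes of -0.53 (SE 0.04, adjusted p = 1.1e-04) and -0.43 (SE 0.03, adjusted p = 1.2e-04) in limma. The ligand and its receptor genes differed in direction between Met + LPS and LPS cells, and after LPS alone all 3 were higher than in untreated cells under both scalings. Ifnar2 shares 315 exon bases with Gm21970 on the same strand.

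**Figure D2:**
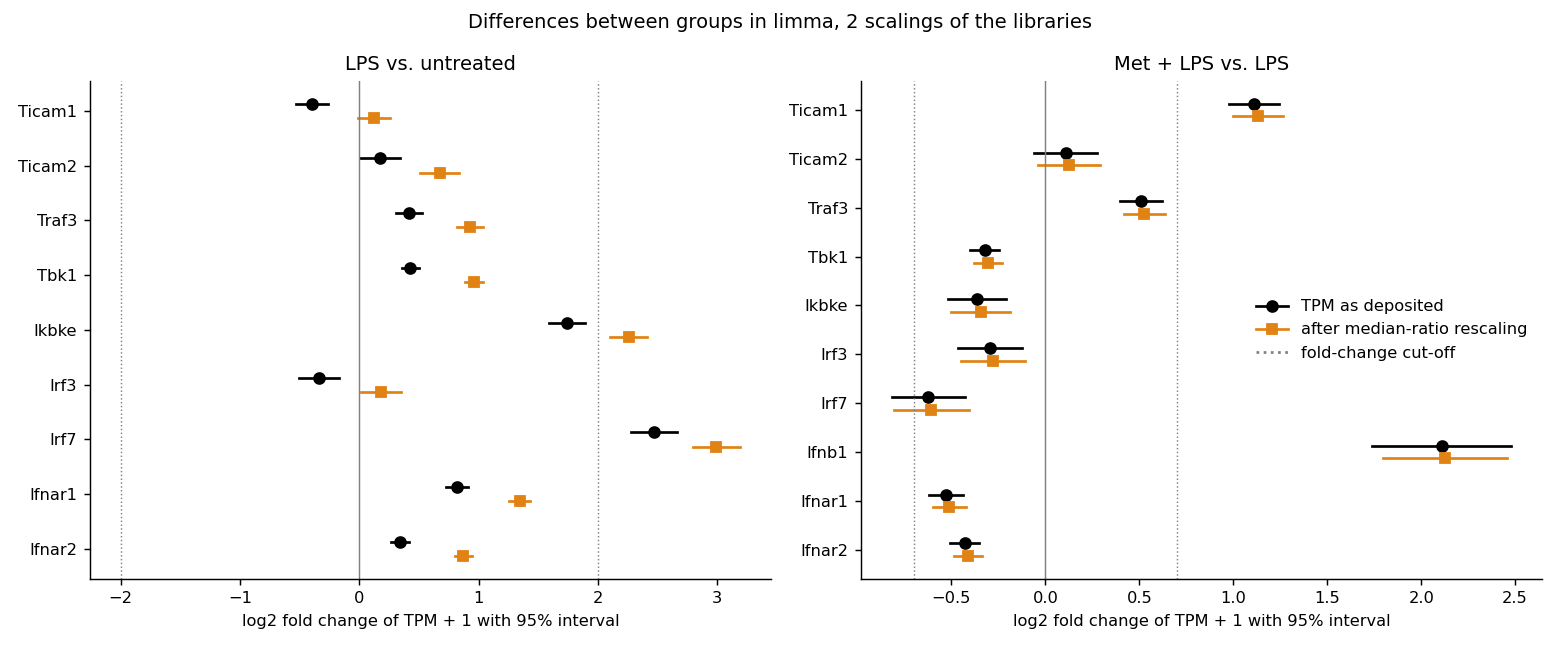
Log2 fold changes of TPM + 1 with 95% intervals from limma (horizontal axes) for LPS vs. untreated (left, Ifnb1 at 7.15 left out) and Met + LPS vs. LPS (right), as deposited (black) and after median-ratio rescaling (orange). On the left Ticam1 and Irf3 move from -0.40 and -0.34 to 0.13 and 0.18 with rescaling, while on the right both scalings give nearly the same values.

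Against untreated cells, Met + LPS cells had 7 members called higher (16.3% of tested genes), 1 lower (58.8% of tested genes) and 2 not called, and Ifnb1 alone was past the cut-offs (3.18% of tested genes). Its log2 fold change of 9.26 (9.48 rescaled) was, as deposited, the largest increase of all tested genes in this comparison. Ifnb1 passed the filter only through the stimulated libraries, so its call and rank here are descriptions only. Irf7 (1.85), Ikbke (1.38), Traf3 (0.92), Ticam1 (0.71), Ifnar1 (0.29) and Ticam2 (0.28) were the other members called higher, with adjusted p-values of at most 0.00798 in limma. After rescaling these were 2.38, 1.91, 1.45, 1.26, 0.83 and 0.80, so that Irf7 was also past the cut-offs. Irf3 was called lower at -0.63 as deposited, but after rescaling it was -0.10 and not called. Tbk1 (0.10) and Ifnar2 (-0.09) were not called as deposited, and after rescaling both were above 0 and called, at 0.65 and 0.46. These libraries are those of the comparisons above, so that the values add no independent evidence.

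Ratios of related members within a library do not depend on how that library was scaled. Irf7 relative to Irf3 went from a log2 ratio of -0.22 ± 0.16 in untreated to 2.63 ± 0.14 in LPS and 2.31 ± 0.07 in Met + LPS libraries (SD, n = 2 each), so that Irf7 passed from below to above Irf3. Ikbke relative to Tbk1 rose from -1.91 ± 0.07 to -0.56 ± 0.05 and was -0.60 ± 0.12 with metformin. The difference of -0.04 between the last groups was within their overlap (p = 1 in a two-sided exact permutation test), so that no shift in the balance of the kinases with metformin was detectable with these libraries.

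Ticam2 relative to Ticam1 was -1.71 ± 0.07 in untreated, -1.13 ± 0.10 in LPS and -2.14 ± 0.03 in Met + LPS libraries, so that Ticam2 was lowest relative to Ticam1 after metformin. Ifnar2 relative to Ifnar1 was 0.20 ± 0.01, -0.27 ± 0.01 and -0.17 ± 0.05, so that Ifnar2 was highest relative to Ifnar1 in untreated cells. Which gene is the more abundant depends on the gene length used for Ticam1 and Ticam2 in LPS libraries and for Ifnar1 and Ifnar2 in untreated libraries. In the other groups the order is the same by either length. The exons of Ifnar1 and Ifnar2 together span 5940 and 3329 bases but the transcripts listed in the file 3909 and 3047. Those of Ticam1 and Ticam2 span 2992 and 5792 bases against 2992 and 2340. For 11 of the 12 differences between groups, the libraries did not overlap and the two-sided exact permutation test gave p = 0.333, which is the smallest value that 2 libraries against 2 allow. None of the 12 can reach the threshold in this design.

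**Figure D3:**
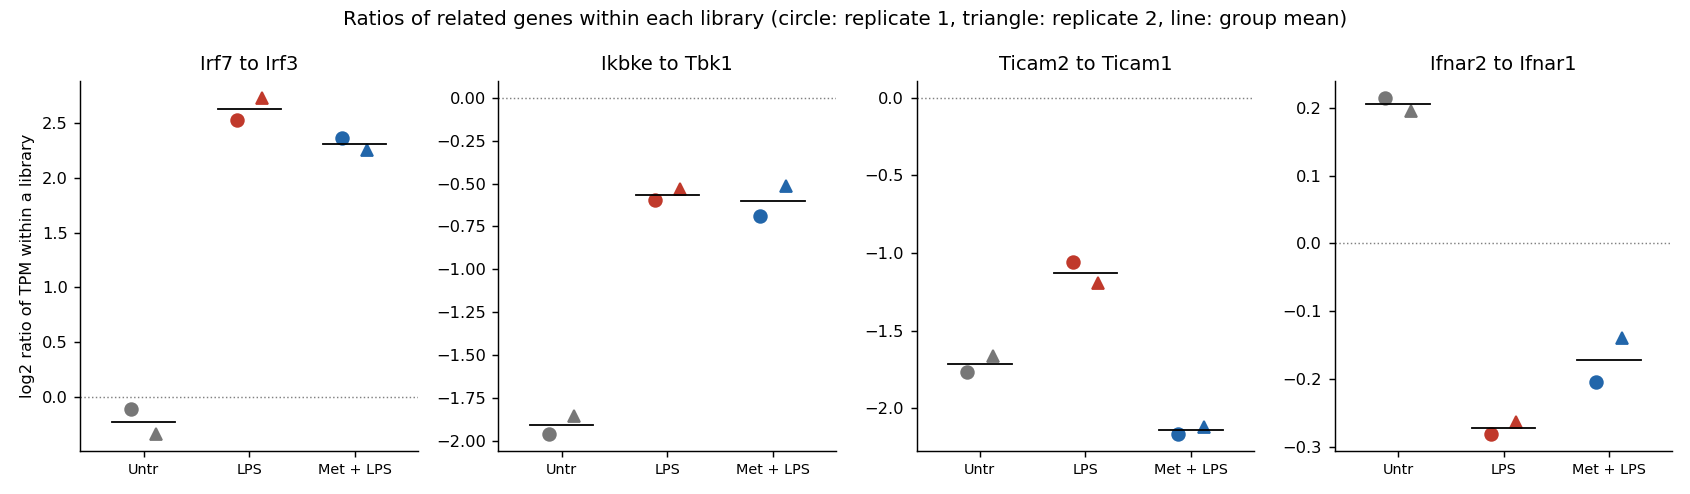
Log2 ratio of the TPM of a pair of genes within each library (vertical axes, each with its own range), with a symbol for each of the 2 replicates, a line at the group mean and a dotted line where both genes are equal. The LPS and Met + LPS libraries overlap only for Ikbke to Tbk1, and the Ticam2 to Ticam1 ratio is lowest in the Met + LPS libraries, at -2.17 and -2.12.

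Of the other type I and type III interferon genes, the file lists 19, of which 14 were at 0 in all 6 libraries. The remaining 5 (Ifna1, Ifna2, Ifna4, Ifna5 and Ifnz) summed to 0 and 1 reads in untreated, 6 and 8 reads in LPS, and 12 and 8 reads in Met + LPS libraries, 35 reads in all. Ifnb1 alone had 844 to 4552 reads in the stimulated libraries. The Ifna genes are near-identical copies between which the authors' counting could have split or dropped reads, and none reached the filter for testing.

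Other genes of the pathway were taken from 6 lists, and apart from those past the cut-offs, the list members named here were chosen after their values were seen. The counts of genes that rose or fell, as deposited, stand beside 16.2% and 60.1% of all tested genes after LPS, and 14.5% and 18.0% with metformin. After LPS, 2993 tested genes had values above 0 and 9756 below as deposited, against 6317 and 6432 after rescaling. Counts after rescaling, with voom or at an unadjusted p-value therefore cannot be set beside these shares. No share is given for falls past the cut-offs either, so all of those counts are descriptions only. Among 11 partners of TRIF and TBK1, 10 were tested. After LPS 7 of these rose and 3 fell (7 and 2 after rescaling), and Peli1, a ubiquitin ligase of this pathway, rose past the cut-offs from 23.9 to 418 TPM (log2 fold change 4.07, adjusted p = 2.2e-09 in limma). After rescaling 4 genes of the list were past the cut-offs, with Tank (2.48), Tlr3 (2.46) and Cd14 (2.07) added, and 3 were with voom on recovered reads. The 3 that fell were Tlr4 (-1.58), Tbkbp1 (-0.99) and Ripk1 (-0.57), of which Ripk1 was not called after rescaling (-0.043). With metformin 0 rose and 5 fell in limma relative to LPS alone (1 and 6 at an unadjusted p-value under 0.05, and 1 and 5 with voom on recovered reads), among them Tlr3 (-0.63), the receptor for double-stranded RNA that signals through TRIF, and the LPS co-receptor Cd14 (-0.40). The medians of the list were 0.83 after LPS (1.35 after rescaling) and -0.20 with metformin.

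Of the 7 cytosolic nucleic acid sensors and adaptors, 5 rose and 1 fell after LPS (6 and 1 after rescaling, with Tmem173 added), with Ifih1 (4.73), Zbp1 (3.42), Cgas (2.07) and Ddx58 (2.06) past the cut-offs. These genes encode MDA5, the DNA and RNA sensors ZBP1 and cGAS, and RIG-I. With metformin 5 fell and 1 rose. Tmem173, which encodes the adaptor STING, fell past the cut-offs from 67.8 to 36.0 TPM (-0.89, adjusted p = 2.3e-05 in limma), and Ifih1 was the gene that rose (0.42, adjusted p = 2.1e-04 in limma). Zbp1 fell just short of the fold-change cut-off (-0.697, adjusted p = 6.7e-04 in limma). With voom on recovered reads 2 genes of the list were past the cut-offs. The medians were 2.06 after LPS (2.57 after rescaling) and -0.41 with metformin.

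Among 9 factors and coactivators of the Ifnb1 enhancer, 4 rose and 3 fell after LPS (6 and 2 after rescaling, where Atf2 and Hmga1 were called higher and Crebbp, called lower as deposited, had a value above 0), and Irf1 (4.81), Rel (2.77) and Nfkb1 (2.55) were past the cut-offs. With metformin 2 rose, Jun (0.62) and Hmga1 (0.35), and Nfkb1 (-0.33), Irf1 (-0.26) and Ep300 (-0.39) fell, with adjusted p-values of at most 0.0041 in limma. None was past the cut-off. Jun, a subunit of the factor that binds the enhancer with ATF2, had fallen after LPS under both scalings (-1.83 as deposited), from 104 to 28.6 TPM, and was at 44.4 TPM in Met + LPS cells. The medians of the list were -0.16 after LPS (0.36 after rescaling) and -0.07 with metformin.

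Of 8 negative regulators of Ifnb1 induction, 5 rose and 1 fell after LPS (median 0.27), and after rescaling these were 7 and 1 (median 0.79), with 2 past the cut-offs in place of 1. Tnfaip3, which encodes the ubiquitin-editing enzyme A20, rose from 13.7 to 1429 TPM (6.61, adjusted p = 9.4e-10 in limma). With metformin 3 rose and 3 fell (median -0.02), and none was past the cut-off. The genes that rose were Dtx4 (0.47), Prdm1 (0.35) and Atf3 (0.24), and those that fell were Irf2 (-0.38), Otud5 (-0.38) and Tnfaip3 (-0.29).

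Downstream of the receptor, 6 of 8 signalling genes rose and 1, Ptpn6 (-0.53), fell after LPS (median 0.86), while after rescaling 7 rose (median 1.38) and Ptpn6 was at 0.0026, not called. After LPS, the feedback inhibitors Socs1 (5.38) and Usp18 (3.61) were past the cut-offs, and after rescaling Stat2 (2.28) was as well. With metformin 7 of the 8 fell and 0 rose in limma, the same counts as at an unadjusted p-value under 0.05 and with voom, and the median was -0.33. Usp18 went from 255 to 148 TPM (-0.78, adjusted p = 2.3e-04 in limma) and Socs1 from 95.4 to 53.9 TPM (-0.81, adjusted p = 0.0019 in limma), both past the cut-offs. Without the share of all tested genes that fell this far, these falls describe single genes. Irf9 was the gene of this list that did not pass (-0.04).

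The 10 interferon-stimulated genes rose after LPS in 10 of 10 cases, 9 of them past the cut-offs, with a median log2 fold change of 6.30 (6.80 after rescaling). Rsad2 (7.42), Mx1 (7.35), Ifit1 (6.87) and Mx2 (6.75) showed the largest changes of the list. With metformin the median was -0.21 and none was past the cut-off. Ifit1, an RNA-binding antiviral protein gene, rose from 3632 to 4327 TPM (0.25, adjusted p = 6.8e-04 in limma), and Mx1 (-0.68), Mx2 (-0.37) and Oasl1 (-0.34) fell, while 6 did not pass. With voom on recovered reads 3 rose and 6 fell, and again none was past the cut-off. In the same libraries the Ifnb1 transcript was 4.32-fold higher than after LPS alone.

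**Figure D4:**
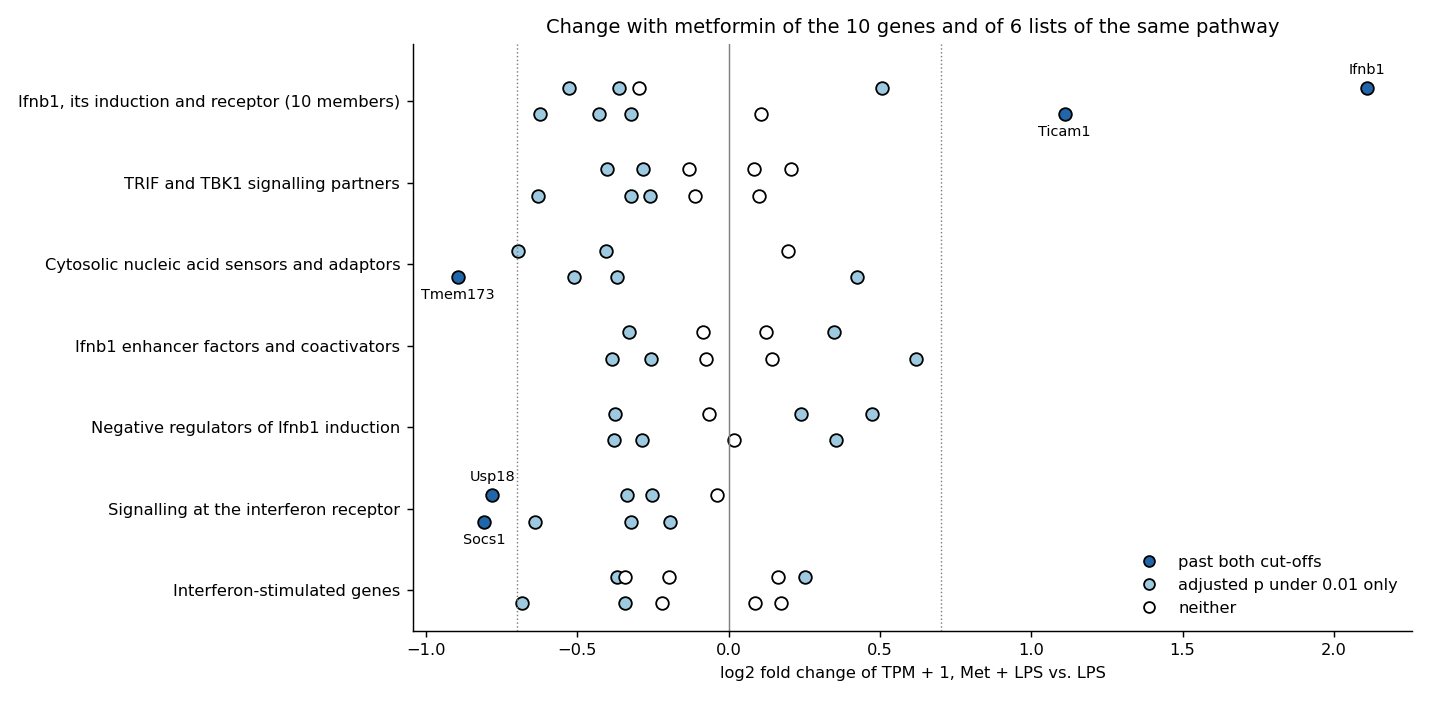
Log2 fold change of TPM + 1 for Met + LPS vs. LPS (horizontal axis) of the 10 genes and of the tested genes of the 6 pathway lists (rows), with a point for each gene, its fill showing which thresholds it passed and dotted lines at the fold-change cut-off of 0.7. Ifnb1 (2.11) and Ticam1 (1.11) stand to the right of the cut-off, Tmem173, Usp18 and Socs1 to the left of it, and the interferon-stimulated genes lie between -0.68 and 0.25.

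The genes whose profiles were nearest to that of Ifnb1, by the Euclidean distance over the 6 libraries of log2(TPM + 1) after subtraction of each gene's untreated mean, were Cxcl2 (distance 0.954), Cxcl1 (1.64), Tnf (1.92), Ccl2 (1.94) and Ptgs2 (2.10). These encode chemokines, the cytokine TNF and cyclooxygenase 2. Cxcl2 went from 2.57 TPM in untreated cells to 566 TPM after LPS and 1521 TPM after metformin and LPS, and Tnf from 31.3 to 3917 and 8069 TPM. Their log2 fold changes with metformin were 1.42 and 1.04, smaller than that of Ifnb1. Those of Cxcl1, Ccl2 and Ptgs2 were 0.69, 0.26 and 0.11, so that the likeness of these 3 rests mainly on the rise after LPS.

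The profiles nearest to that of Irf7 were Slfn5 (distance 0.154), Sh3bp4 (0.249), Pnp2 (0.265), Rhob (0.270) and Birc3 (0.291). Slfn5, a gene of the interferon-inducible Schlafen family, went from 36.7 to 211 and then 129 TPM. The log2 fold changes of these 5 genes with metformin lay between -0.75 and -0.48. The measure selects genes for likeness, so it carries no test, and the smaller distances around Irf7 go with its smaller range.

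**Figure D5:**
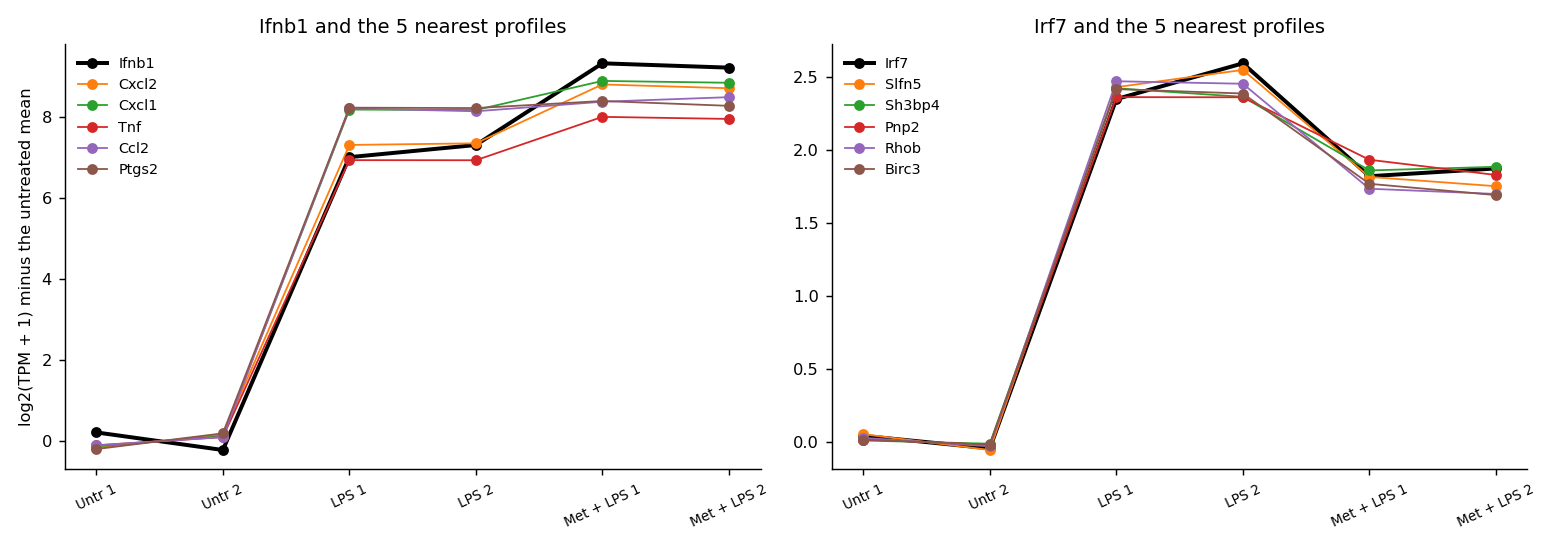
Log2(TPM + 1) minus the untreated mean of each gene (vertical axes) in the 6 libraries (horizontal axes) for Ifnb1 (left) and Irf7 (right), each with the 5 tested genes nearest to it, where lines join the libraries of a gene to guide the eye. Ifnb1 is the highest of its set in both Met + LPS libraries, and Irf7 and its set are lower in Met + LPS than in LPS libraries.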

How the data were processed

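Per the labels, the authors isolated RNA with TRIzol, enriched poly-A RNA, prepared Illumina TruSeq libraries and sequenced single-end reads. Per the labels and the study's methods, reads were aligned to GRCm38 with STAR 2.6.1d and SAMtools 1.9 and counted with featureCounts (Subread 1.6.3) on Ensembl release 94. The authors deposited a table of TPM for 54532 genes, without pooling replicates. How counts became TPM and whether counting used strand are not given in the sources used here.

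The test was limma 3.58.1 (R 4.3.3), applied to log2(TPM + 1) with a mean-variance trend, all 6 libraries, no covariate and 3 residual degrees of freedom. The cut-offs follow the study's methods, whose count test was not used because the values are TPM. Multiplied by exon lengths of the GENCODE annotation (54495 genes), 95.8% to 96.3% of values above 0 were whole reads within 0.02, which gave reads per library (25457016 to 30762755) and a voom fit. Each number rests on 2 libraries a group. Alternatives were pseudocount, filter, scaling, block, variance model, cut-offs, voom (with median-ratio scaling added after seeing the data) and leaving out each library. The fit was also run on simulated reads with the same spread for every gene and with changes set only in well-expressed genes. That run does not bear on genes near the limit of detection or on how the replicates arose.

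The members and lists were chosen with earlier results of these data known. The naming rule covered the 10 members, in each list up to 4 genes with the largest changes past the cut-offs of a comparison, and the 5 nearest profiles of Ifnb1 and Irf7. Other list genes were named after their values were seen. Tables and plots used Python 3.11.15, numpy 2.4.6, pandas 2.3.3, scipy 1.17.1 and matplotlib 3.10.9.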

Additional observations from a re-analysis of the deposited data

How the results depend on the processing

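Of 450 recomputed values of single members, 415 kept their direction and their side of the threshold, 20 lost the call, 9 gained it and 6 changed direction. These 6 came from median-ratio scaling of TPM or of recovered reads with voom, which gave 0.18 and 0.19 for Irf3 and 0.13 and 0.13 for Ticam1 (LPS vs. untreated), and 0.46 and 0.47 for Ifnar2 (Met + LPS vs. untreated). The number of members past the cut-offs in Met + LPS vs. LPS was 1 with a pseudocount of 0.1, in place of 2. In LPS vs. untreated it was 3 in place of 2 with either median-ratio scaling and where the log2 fold change had to reach only 1. In Met + LPS vs. untreated it was 2 with either median-ratio scaling and 3 where the log2 fold change had to reach only 1, in place of 1. Leaving out each library in turn gave 2 to 2, 2 to 3 and 1 to 1 members past the cut-offs for LPS vs. untreated, Met + LPS vs. LPS and Met + LPS vs. untreated, and 8 to 9, 7 to 8 and 7 to 8 past the adjusted p-value alone. The log2 difference in the Ikbke to Tbk1 ratio between Met + LPS and LPS ranged from -0.13 to 0.048, and it was 0.048, above 0, without Met + LPS replicate 1. With the replicate number as a block, Ifnb1 kept its value of 2.11 (adjusted p = 3.7e-04 in limma) and 9 members were past the adjusted p-value in Met + LPS vs. LPS in place of 8, with Irf3 added (adjusted p = 0.00488 in limma). Libraries with the same replicate number did not deviate together from their group means (r = -0.004, 0.028 and 0.006 across genes for the 3 pairs of groups), so the numbers were not taken to pair samples. With 2 libraries a group, a difference such as that of Ticam2 with metformin (95% interval -0.06 to 0.27) cannot be resolved.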
